A study of Mus musculus with 25 samples.

Results

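The 4 peri-injured regions of a fibrosing mouse lung were compared by their distance from the injury: regions 6 and 10 had been placed close to it (proximal) and regions 9 and 12 farther away (distal). The division into proximal and distal is the study's own and rests on histology, not on the counts. Each region gave 2 segments, so 8 of the 24 tissue segments and 4 of the 12 regions of the series entered the comparison, with 2 proximal and 2 distal segments in each of 2 compartments. The CD68 segments held the CD45+CD68+ area of a region, stained for leukocytes and macrophages, and the non-immune segments held its DNA+ CD45- area. All 4 regions came from 1 male SP-C I73T mutant mouse, 14 days after 1 oral dose of tamoxifen (175 mg/kg in corn oil). In this model tamoxifen activates a recombinase expressed in all tissues, which removes a cassette and raises the mutant surfactant protein C in alveolar type 2 cells. For reference, the 5 injured regions came from the same mouse, and the 3 healthy regions came from 1 male mutant mouse at day 0 without tamoxifen. Regions of 1 mouse are technical replicates. The p-values of the main fits below rest on the spread between regions of a class, with the healthy regions of the other mouse included. They hold no spread between animals and say nothing about other mice. Any difference from the healthy regions cannot be told apart from a difference between the 2 mice.

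Surfactant protein C is made by alveolar type 2 cells, the secretory cells of the lung epithelium that produce surfactant and act as progenitors for the gas-exchanging surface. A misprocessed form of the protein stresses these cells and is followed by an influx of monocytes and by patchy remodeling, with consolidated tissue lying beside alveoli that still look open. Macrophages of such a lung are a mixture of resident alveolar cells and cells that arrive from the blood, and CD68, a lysosomal glycoprotein, marks both. A segment is a small piece of tissue, so its profile is that of all cells under the mask, and fewer cells of a type and less RNA per cell cannot be told apart.

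The measurement was made with probes of a mouse whole transcriptome panel, each carrying a barcode that was cut from the tissue under a segment and sequenced. A value is the number of distinct molecules of a barcode, and 20175 probes had a count in at least 1 segment. The count files list probes by barcode identifier and do not pair them with gene symbols, so genes are not named here and the CD68, epithelial or fibroblast identity of a segment could not be checked on marker genes. In place of marker lists, groups of probes were defined in the healthy and injured regions alone. The total per segment ranged from 21955 to 671249 in the 8 peri-injured segments, and a reaction without tissue held 1 count from 150068 reads. Sequencing saturation, the percentage of aligned reads that were duplicates, lay between 93.5% and 96.1% in these segments.

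Proximal segments were larger and richer in counts than distal ones in both compartments. The area of a segment also depends on the size of the region selected, so it is not read as a trait of tissue near the injury. The CD68 segments of regions 6 and 10 held 93567 and 89506 counts, and those of regions 9 and 12 held 21955 and 33021. The mean of the proximal pair was 3.33 ± 0.812 times that of the distal pair (SD over the 4 pairings of a proximal with a distal segment). Their areas, in the unit written by the instrument, were 8023 and 8389 against 3167 and 3595, a ratio of 2.43 ± 0.189, so the area differed by less than the count. Per 1000 units of area the proximal CD68 segments had 11663 and 10670 counts and the distal ones 6932 and 9186, which is 1.39 ± 0.240 times as many, with no overlap. Both proximal values and that of distal region 12 lay above all 5 injured CD68 segments, which spanned 5718 to 8237 counts per 1000 units, and above the 3 healthy ones, at 5610 to 8370.

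In the non-immune segments the totals were 558129 and 671249 in the proximal and 279999 and 201239 in the distal regions, a ratio of 2.55 ± 0.571. Areas of 49140 and 74950 against 29205 and 22258 gave nearly the same ratio of 2.41 ± 0.708. Counts per 1000 units of area therefore overlapped, with 11358 and 8956 in the proximal and 9587 and 9041 in the distal segments (ratio 1.09 ± 0.154). With 2 segments against 2, an exact two-sided permutation test cannot give a p below 0.333, which is the value for each measure without overlap in this text, so none of them could reach 0.05.

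**Figure D1:**
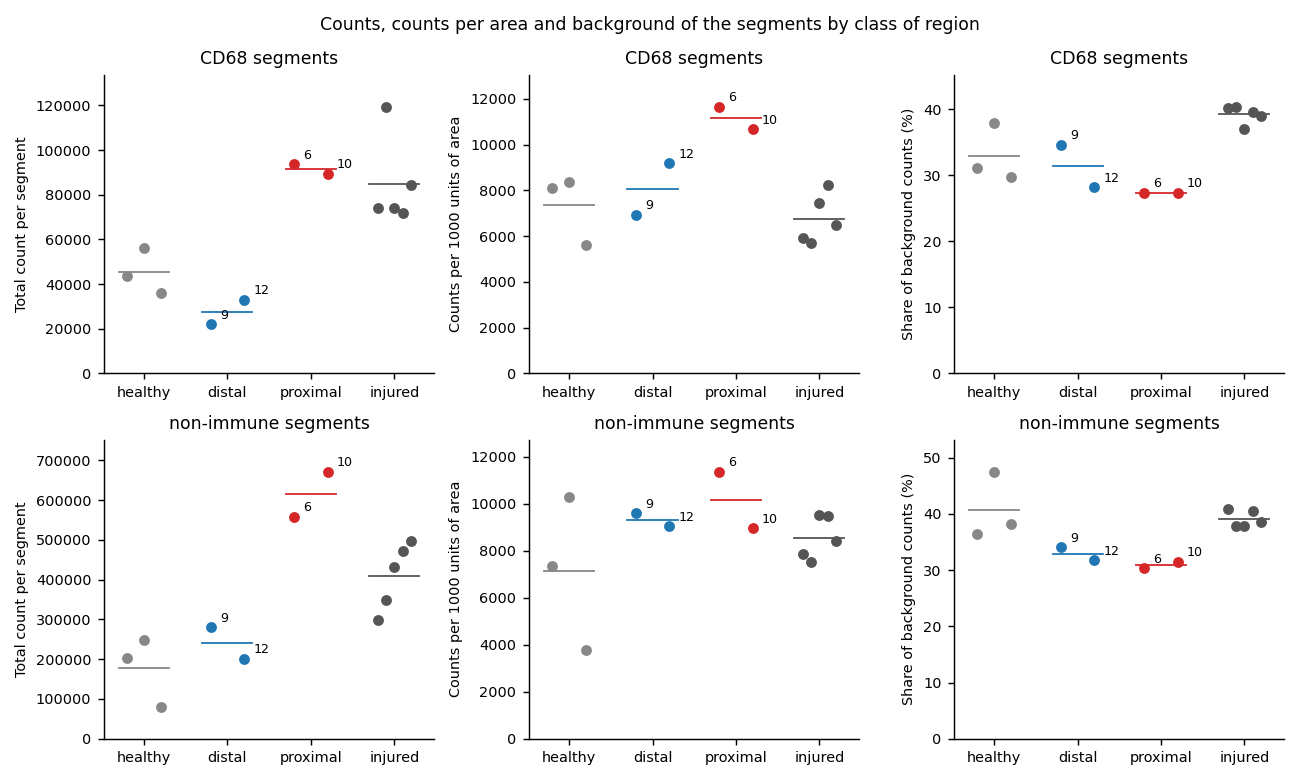
Total counts, counts per 1000 units of area and the share of background counts (vertical axes, starting at 0) of all 24 segments by class of region, with CD68 segments above and non-immune segments below; points are segments, bars are class means and numbers mark the peri-injured regions. The proximal CD68 segments, at 11663 and 10670 counts per 1000 units of area, lie above every other CD68 segment, whereas proximal and distal non-immune segments overlap.

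Probes with at least 1 count numbered 18358 and 18190 in the proximal and 11054 and 13458 in the distal CD68 segments. This order was turned by the depth: at the total of the shallowest segment, the expected numbers were 10546 and 10472 in the proximal and 11054 and 10867 in the distal segments, a ratio of 0.959. The deep proximal segments thus spread an equal number of counts over slightly fewer probes. In non-immune segments the number was 20165 and 20173 against 20079 and 19916, and at an equal total 17898 and 18051 against 18284 and 18208, again lower in both proximal segments.

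The background set of a compartment was the least abundant 10% of probes in the other compartment. Background was estimated as the share of counts that the whole panel would hold if each probe were as rare as this set on average. It made up 27.4% (95% exact Poisson interval 26.3 to 28.5) and 27.4% (26.3 to 28.5) of the counts in the proximal CD68 segments of regions 6 and 10, and 34.7% (32.2 to 37.2) and 28.2% (26.4 to 30.1) in the distal ones of regions 9 and 12. Region 9 stood apart, and the interval of region 12 overlapped those of both proximal segments. In the non-immune segments the share was 30.4% and 31.5% in the proximal against 34.1% and 31.7% in the distal regions, and the interval of region 10 (31.1 to 31.9) overlapped that of region 12 (30.9 to 32.5). Injured regions had more background than the peri-injured ones in every segment, with 37.0% to 40.4% in CD68 and 37.8% to 40.8% in non-immune segments. Healthy regions had 29.8% to 37.9% in CD68 and 36.5% to 47.5% in non-immune segments. Region 9 thus lay within the healthy CD68 range, and all other peri-injured segments lay below the healthy range of their compartment. Intervals on counts cover counting error only.

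Groups of probes that separate CD68 from non-immune segments, and injured from healthy lung, were then followed through the peri-injured regions. They were defined by fits that left these regions out: 51 probes (0.85% of 6000) were higher and 152 (2.53%) lower in CD68 than in non-immune segments. In CD68 segments 19 probes (0.317%) were higher and 29 (0.483%) lower in injured than in healthy regions, and in non-immune segments 32 (0.533%) were higher and 96 (1.6%) lower (edgeR, adjusted p under 0.05, 6000 probes tested in each fit). For short, these are called probes that rise or fall with injury, although injured and healthy regions also differ in mouse and in tamoxifen.

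Probes of the CD68 compartment held a larger share of the counts in both proximal segments than in either distal one. The 51 probes higher in CD68 segments took 3.64% (95% exact binomial interval 3.52 to 3.76) and 3.75% (3.62 to 3.87) of the counts in the proximal CD68 segments of regions 6 and 10. In the distal segments of regions 9 and 12 they took 3.33% (3.10 to 3.58) and 2.88% (2.70 to 3.06). The groups did not overlap, although the intervals of regions 6 and 9 did, and the ratio was 1.19 ± 0.103. The 3 healthy CD68 segments held 1.30% to 1.35% and the 5 injured ones 0.989% to 3.03%. Both proximal segments and the distal one of region 9 thus lay above all of the injured ones. These are shares of all counts, background included. Background was estimated at 34.7% in region 9, 28.2% in region 12, 27.4% in regions 6 and 10 and 37.0% to 40.4% in injured segments. More background lowers such a share, and shares of the counts above background were not compared.

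The same probes were rare outside the CD68 mask, at 0.459% (0.441 to 0.477) and 0.489% (0.473 to 0.506) of the counts in the proximal and 0.406% (0.383 to 0.430) and 0.396% (0.369 to 0.424) in the distal non-immune segments. Again both proximal segments were higher, with no overlap of the intervals and a ratio of 1.18 ± 0.0472.

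Probes of the non-immune compartment showed another order. Their 152 members took 2.47% and 1.41% of the counts in the proximal and 2.42% and 2.44% in the distal CD68 segments, so region 10 alone stood low and region 6 lay with the distal pair. In the injured CD68 segments the share was 0.983% to 1.28%, and in the healthy ones 1.90% to 2.84%. In the non-immune segments themselves they took 5.64% and 4.37% in the proximal against 3.98% and 4.01% in the distal regions, without overlap (ratio 1.25 ± 0.185). Region 6 exceeded the healthy non-immune segments, at 4.51% to 4.78%, whereas region 10 lay below them.

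The probes that rise with injury were above the healthy level in every peri-injured segment, with no order by distance. Injured and peri-injured regions share a mouse, so this cannot be told apart from a difference between the mice. The probes were also chosen for low values in these same healthy segments, which by itself tends to place other segments above them. In CD68 segments the 19 probes took 1.84% and 2.01% of the counts in the proximal and 2.27% and 1.24% in the distal regions, against 0.331% to 0.429% in the healthy and 1.08% to 2.44% in the injured segments. In non-immune segments the 32 probes took 1.54% and 1.39% against 1.61% and 1.43%. The healthy non-immune segments held 0.510% to 0.580% and the injured ones 1.11% to 1.54%.

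The probes that fall with injury mostly lay between the healthy and injured levels. They were chosen for a higher healthy than injured level in these same reference segments, which draws the levels apart. Other segments then tend to lie between them, so no gradient is read from this. In CD68 segments the 29 probes took 1.07% and 0.574% in the proximal and 0.811% and 1.05% in the distal regions, below the healthy range of 1.31% to 2.18% and above the injured range of 0.261% to 0.436%. In non-immune segments the 96 probes took 1.87% and 1.23% against 1.54% and 1.63%, where region 10 fell within the injured range of 0.687% to 1.28%. For both groups and in both compartments proximal and distal segments overlapped.

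**Figure D2:**
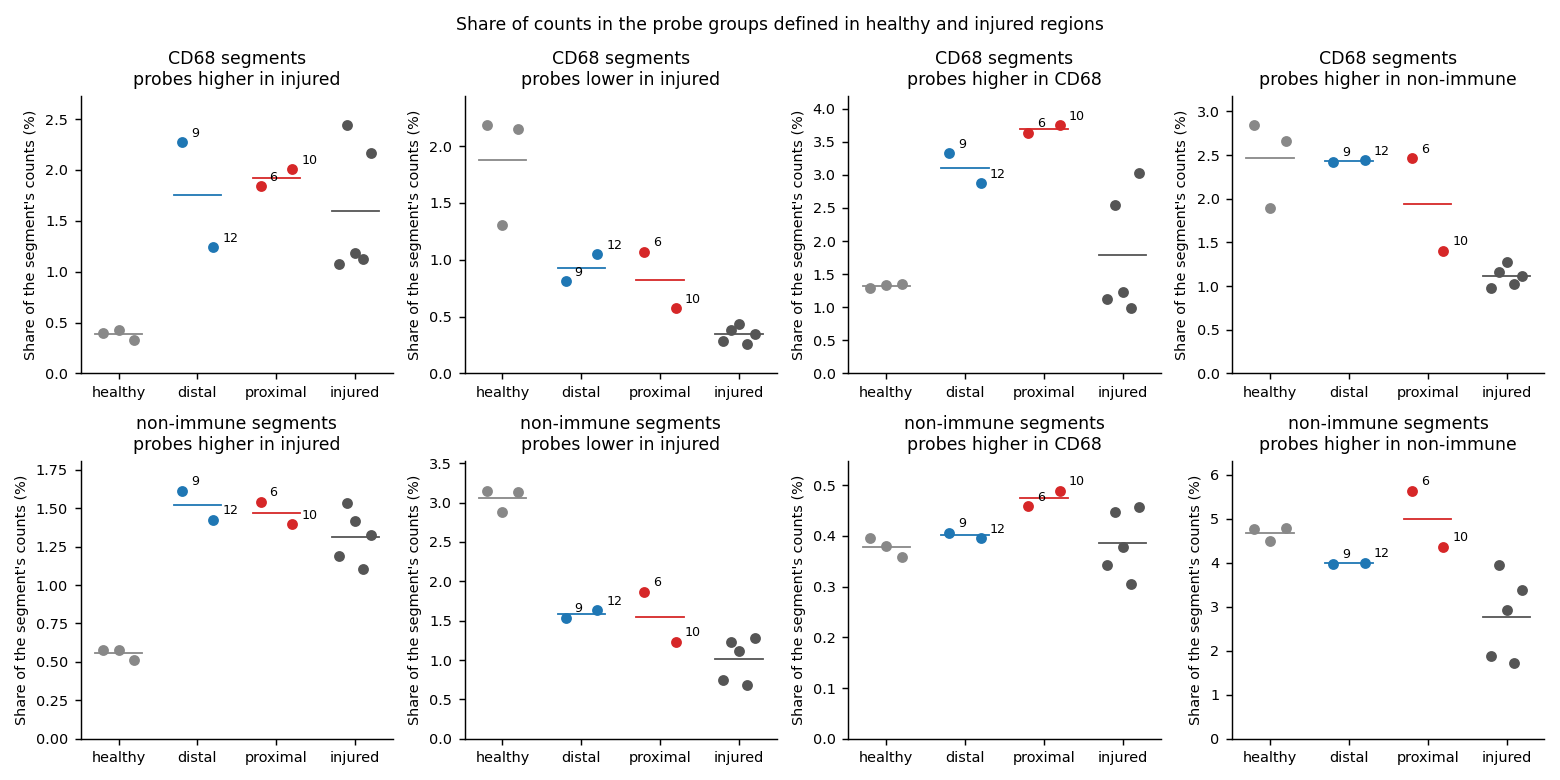
Share of a segment's counts (vertical axes, percent, starting at 0) held by each of the 4 probe groups, for CD68 segments above and non-immune segments below, by class of region; points are segments, bars are class means and numbers mark the peri-injured regions. Both proximal segments are above both distal ones for the probes higher in CD68 (3.64% and 3.75% against 3.33% and 2.88% in CD68 segments). Proximal and distal segments overlap for the probes that rise or fall with injury. Shares are of all counts, background included.

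Few single probes of the CD68 compartment passed the test between proximal and distal regions. Of 6000 tested probes, the most abundant ones over the 12 CD68 segments, 9 passed an adjusted p of 0.05 in edgeR's quasi-likelihood test (0.15% of those tested), 4 higher (0.0667%) and 5 lower (0.0833%) in the proximal regions. Without adjustment 440 probes had a p under 0.05 (7.33%). Normalized counts were counts scaled to the upper quartile of a segment, and on that scale the median log2 change over all 6000 probes was 0.33, with 0.19 under another scaling (TMM, the trimmed mean of M-values), so changes of groups are read against that median. The upper quartile was 9 counts in both proximal and 3 and 4 in the distal segments, and 1157 of the 6000 probes had no count in the distal segment of region 9. The median standard error of a log2 change, derived from the change and its test statistic, was 0.88.

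How many probes were higher in the proximal CD68 segments depended on the scaling and the filter. The log2 change was above 0 for 64.3% of the 6000 probes with the upper quartile and 58.7% with TMM. With every segment thinned to equal totals it was above 0 for 39.1%, its median was 0, and the rest included probes tied at 0. It was above 0 for 50.6% of all 20175 probes without a filter and for 50.5% of the 1477 probes kept by edgeR's own filter, each scaled within its own set. With the upper quartile over 6000 probes, proximal and distal normalized counts did not overlap for 2185 probes (36.4%), of which 1640 (27.3%) were higher and 545 (9.08%) lower in the proximal segments. On the same scale, among the 100 most abundant probes 66 were higher and 5 lower without overlap, their median log2 change was 0.55 with a median standard error of 0.43, and 89 of the 100 changed by less than 1 log2 unit. Of the 51 probes higher in CD68 segments, 34 were higher and 1 lower without overlap, 14 had an unadjusted p under 0.05, and none passed the adjusted test. Their median log2 change was 0.74, which is 0.41 above the median of all probes. It stayed above that median by 0.25 to 0.45 when any 1 of the 4 regions was left out. Abundance enters here, since edgeR's own filter kept 48 of the 51. The 100 most abundant probes, with 66 higher without overlap and a median of 0.55, are a closer reference. With edgeR's filter the median of the group was 0.27 against 0.01 for all probes, and with no filter 0.30 against 0.02.

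For the probes higher in the non-immune compartment, 115 of 152 were among the 6000. Of these, 16 were higher and 15 lower without overlap, against 27.3% and 9.08% of all 6000. Their median log2 change was 0.05, or 0.27 below that of all probes (difference -0.27), and this ranged from -0.57 without region 6 to -0.04 without region 10, so it rested on region 10. One of them was called lower. The probes that rise and fall with injury had medians 0.20 above and 0.04 below that of all probes (differences 0.20 and -0.04) with none called, and neither kept its sign when single regions were left out.

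**Figure D3:**
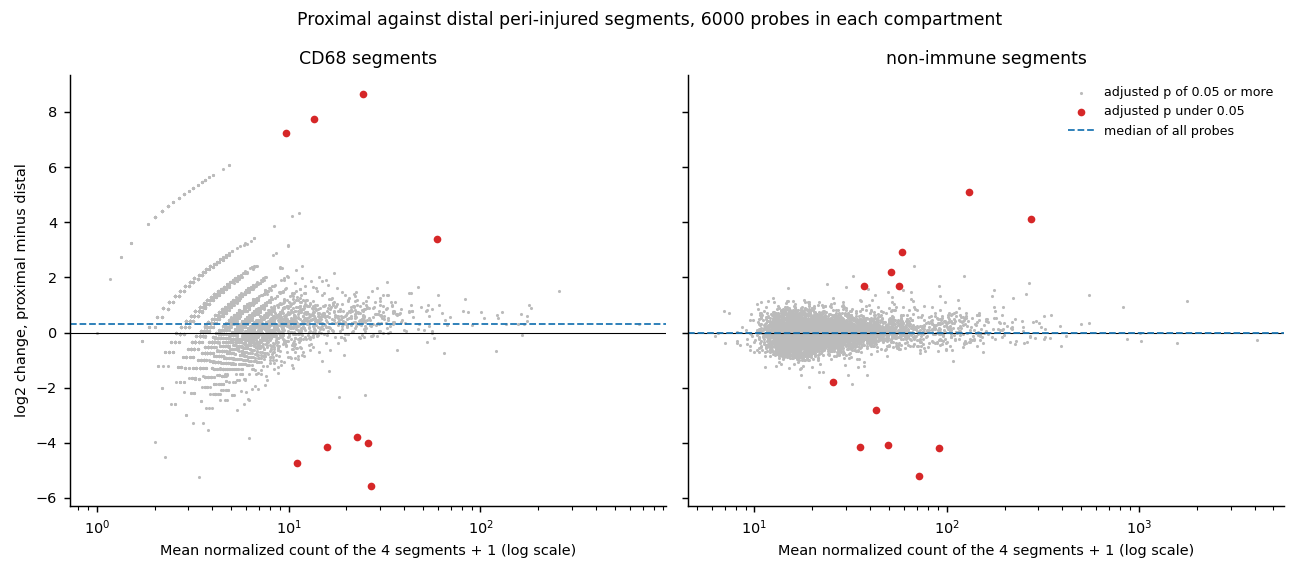
log2 change, proximal minus distal (vertical axis), against the mean normalized count of the 4 peri-injured segments plus 1 (horizontal axis, log scale) for 6000 probes of each compartment; red points passed an adjusted p of 0.05 and the dashed line is the median of all probes. The 9 called CD68 probes and 12 called non-immune probes lie at both ends, and the median is 0.33 in CD68 and -0.02 in non-immune segments.

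Most calls in the CD68 compartment were made by 1 segment. In 8 of the 9 called probes a single segment held over 80% of the normalized counts of the 4, and the groups overlapped in 4 of the 9. No called probe was called in more than 2 of the 4 fits that left out 1 region, and 4 of the 9 changed sign in at least 1 of them. Dropping proximal region 6 or 10 gave 7 or 6 calls, and dropping distal region 9 or 12 gave 4 or 5. The exception was RTS0070590, which had 102 and 219 counts in the proximal segments of regions 6 and 10 and 1 and 11 counts in the distal segments of regions 9 and 12. As normalized counts these are 68.4 and 147 against 2.01 and 16.6, so both proximal segments were high and the groups did not overlap. The log2 change was 3.41 ± 0.66 (SE, adjusted p = 0.00905, edgeR), and it was 2.69 to 5.66 when 1 region was left out. The call was lost without region 10 (adjusted p = 0.217, edgeR) and without region 9 (adjusted p = 0.748). The healthy and injured CD68 segments had 5.33 ± 2.64 (SD, n = 3) and 11.4 ± 11.0 (SD, n = 5) normalized counts, below both proximal segments on average, and the non-immune segments of the same regions had only 10 and 23 against 2 and 10 counts.

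The 2 other probes singled out by rank in this compartment show how single segments enter. RTS0078421 had 1 and 139 counts in the proximal and 0 and 0 in the distal segments (log2 change 8.64 ± 1.77, not a measure of size without a distal count, adjusted p = 0.0152, edgeR). With a floor of 3 counts over the distal pair, it was at least 18.1-fold higher in the proximal pair, but 139 of its 140 counts came from region 10, and the fit without region 10 gave an adjusted p of 0.929, with 0.638 without region 9 and 0.542 without region 12. RTS0069421 had 1 and 1 counts in the proximal and 2 and 23 in the distal segments. The log2 change was -4.74 ± 0.86 (adjusted p = 0.00558, edgeR), the distal pair was 32.1 times higher after scaling (95% exact interval of the counts 8.02 to 280), and the adjusted p was 0.645 without region 12, 0.0622 without region 6 and 0.0821 without region 10. It was the 1 probe called lower in proximal CD68 segments whose groups did not overlap.

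Calls in the non-immune compartment were as few but rested on deeper counts. Of 6000 tested probes 12 passed the adjusted p of 0.05 (0.2%), 6 higher (0.1%) and 6 lower (0.1%) in the proximal segments, and 403 had an unadjusted p under 0.05 (6.72%). The median log2 change over all probes was -0.02 and the median standard error 0.33. Groups did not overlap for 2348 probes (39.1%), of which 1054 (17.6%) were higher and 1294 (21.6%) lower in the proximal regions. Leaving out region 6 gave 19 calls, region 10 gave 2, region 9 gave 8 and region 12 gave 9, and no called probe was called in more than 2 of these 4 fits. In 6 of the 12 a single segment held over 80% of the normalized counts.

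The probe with the largest count among those called was RTS0081477. It had 319 and 1965 counts in the proximal non-immune segments of regions 6 and 10 and 22 and 25 in the distal ones of regions 9 and 12, or 163 and 871 against 23.4 and 36.3 normalized counts. Region 10 was far above the rest, and region 6 was still above both distal segments. The log2 change was 4.13 ± 0.81 (SE, adjusted p = 0.0258, edgeR), and it was 2.47 without region 10, where the call was lost (adjusted p = 0.745, edgeR), as it was without region 9 (0.409) and region 12 (0.362). Healthy non-immune segments had 7.70 ± 4.91 (SD, n = 3) and injured ones 55.8 ± 53.7 (SD, n = 5) normalized counts. In the CD68 segments of the same regions the probe had 446 and 678 against 97 and 46 counts, with a log2 change of 1.52 ± 0.68 that did not pass the adjusted test (adjusted p = 0.669, edgeR). In the healthy CD68 segments it had 3.66 ± 1.10 normalized counts (SD, n = 3), so each of the 4 peri-injured CD68 segments, at 69.4 to 455, was above the healthy mean.

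RTS0075947 also moved the same way in both compartments. It had 111 and 332 counts in the proximal and 12 and 10 in the distal non-immune segments, which is 56.8 and 147 against 12.7 and 14.5 normalized counts without overlap. The log2 change was 2.91 ± 0.49 (adjusted p = 0.00808, edgeR), with 2.06 to 3.43 when 1 region was left out, though only the fit without region 6 kept the call, the adjusted p being 0.0899 to 0.175 without region 9, 10 or 12. The CD68 segments held 11 and 37 against 1 and 1 counts, a ratio of 9.33 after scaling (95% exact interval of the counts 2.45 to 79.3), and the log2 change of 3.14 ± 0.83 did not pass the adjusted test (adjusted p = 0.248, edgeR). Of the 6 probes called higher in non-immune segments, 5 were among the 6000 of the CD68 compartment and all 5 had a log2 change above 0 there, against 64.3% of all CD68 probes; none of the 5 was called in it.

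Both probes named as lower were carried by a single distal region. RTS0062715 had 12 and 12 counts in the proximal and 163 and 7 in the distal non-immune segments, or 6.14 and 5.32 against 173 and 10.2 normalized counts. The log2 change was -4.07 ± 0.59 (adjusted p = 0.00207, edgeR), and -0.82 with an adjusted p of 0.955 without region 9; without region 10 the adjusted p was 0.0660. RTS0067055 had 7 and 7 counts against 6 and 86, all of the excess being in region 12. Its log2 change of -4.15 ± 0.74 (adjusted p = 0.0127, edgeR) became -0.92 with an adjusted p of 0.968 without region 12, and the adjusted p was 0.193 without region 10. None of the 7 probes named in both compartments passed an adjusted p of 0.05 with DESeq2 or limma on the normalized counts, and after subtraction of background limma called RTS0070590 alone (adjusted p = 0.00141). In healthy and injured non-immune segments the means of both probes were between 5.73 and 6.84 normalized counts, and the 3 other peri-injured segments had 3.10 to 10.2.

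**Figure D4:**
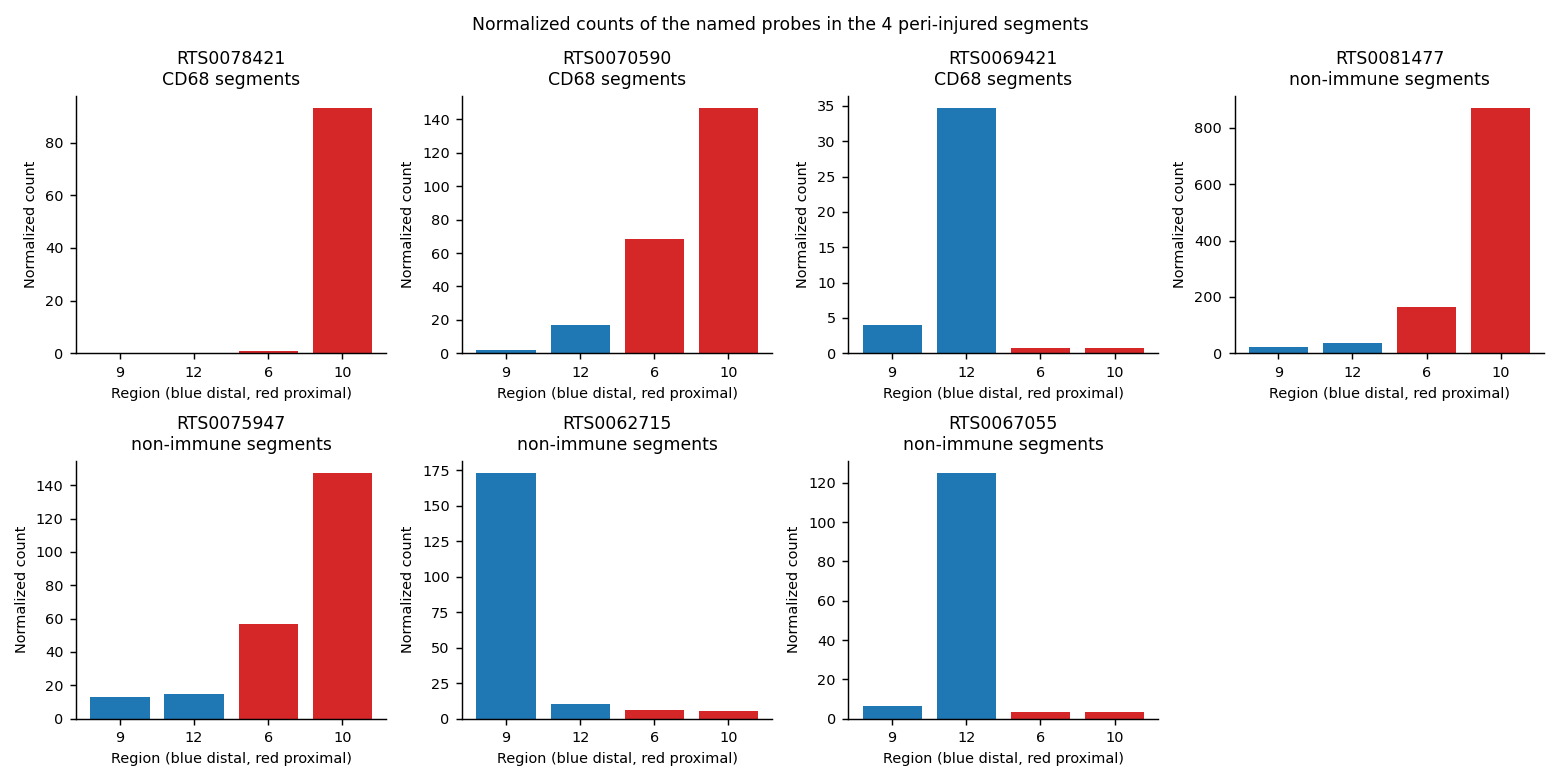
Normalized counts (bars, vertical axes starting at 0) of the 7 named probes in the 4 peri-injured segments of the compartment in which each was called, with distal regions 9 and 12 in blue and proximal regions 6 and 10 in red. RTS0070590, RTS0081477 and RTS0075947 are higher in both proximal segments, and the other 4 probes are high in a single segment.

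Group medians lay closer to that of all probes in the non-immune than in the CD68 compartment. Of all 6000 non-immune probes, 17.6% were higher and 21.6% lower without overlap, and the counts of each group are read against these shares. Of the probes higher in CD68 segments, 33 of 51 were tested here, 13 were higher and 5 lower without overlap, and their median log2 change was 0.21, which is 0.24 above that of all probes and 0.18 to 0.36 above it when 1 region was left out. The 152 probes higher in non-immune segments had a median of -0.03 with 29 higher and 31 lower without overlap. Their larger share of the counts close to the injury was therefore not seen in the median of the group, which lay 0.22 below that of all probes without region 6 (difference -0.22) and 0.16 above it without region 10. The probes that rise and fall with injury had medians of -0.03 and -0.05, with none called, and 5 and 8 higher against 9 and 22 lower without overlap.

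The difference between the log2 changes of both compartments asked whether proximal and distal regions differed in another way in CD68 than in non-immune segments. No probe of 6000 passed the adjusted p of 0.05 (0%) in edgeR, 410 had an unadjusted p under 0.05 (6.83%), and DESeq2 called 0, with 227 at an unadjusted p under 0.05. Because both segments of a region lie in the same piece of tissue, the region number was also fitted as a block, and 13 probes then passed (0.217%), with 6 differences above and 7 below 0. Of these 13, 9 were also called within 1 of the compartments. The probe with the lowest p was RTS0078014, which had 1 and 2 counts in the proximal and 0 and 67 in the distal CD68 segments, and 16 and 20 against 0 and 9 in the non-immune ones. The difference was -6.33 ± 1.35 (adjusted p = 0.168, edgeR), it passed with the block (adjusted p = 0.000505), and it fell to -0.87 without region 12. Of those above 0, RTS0069299 had the lowest p, with 14 and 13 against 1 and 0 counts in CD68 and 16 and 21 against 12 and 13 in non-immune segments (difference 4.13 ± 0.98, adjusted p = 0.191, and 0.165 with the block).

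Across the 4586 probes tested in both compartments, the log2 changes shared 54.1% of their signs, and Pearson's r was 0.10 over all and 0.23 over the 709 probes among the 1000 most abundant in each. These are descriptions across probes, whose values share the 4 regions and the depth of each segment. An unadjusted p under 0.05 was found in 325 of these probes in the CD68 and 299 in the non-immune fit. They had 28 in common, 8.62% of the first list, where 6.52% of all 4586 probes were on the second, and 9.36% of the second, where 7.09% were on the first. Of the 28, 23 were higher and 3 lower in both and 2 had opposite signs.

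Over the whole profile, mixed pairs of segments were not farther apart than pairs of the same class in every case. The distance between 2 segments was taken over log2(normalized count + 1) of the 6000 probes. In the CD68 compartment the proximal segments were 58.9 apart and the distal ones 106, while the 4 pairs of a proximal with a distal segment ranged from 80.04 to 100.1 (mean 90.0, against 82.2 within classes, a ratio of 1.09). The ratio was 1.69 without region 12 and 0.852 without region 6. With every segment thinned to 21955 counts the proximal pair was 70.2 and the distal pair 73.9 apart, and the mixed pairs were 70.1 to 74.8 apart. In the non-immune compartment the proximal pair was 30.8 and the distal pair 42.6 apart, with mixed pairs at 36.9 to 43.2.

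A position between the mean healthy profile (0) and the mean injured profile (1) was computed for each peri-injured segment. The healthy mean enters both the difference of a segment and the axis, so noise alone gives values between 0 and 1. The level of a position is therefore not read as a place between the profiles, and only proximal and distal positions are compared. The proximal CD68 segments lay at 0.574 and 0.636 and the distal ones at 0.468 and 0.452, a difference of 0.145 ± 0.0370. This did not hold under other settings: with TMM the positions were 0.538 and 0.643 against 0.629 and 0.534, and with equal totals 0.459 and 0.510 against 0.536 and 0.472. Non-immune segments lay at 0.456 and 0.611 in the proximal and 0.590 and 0.544 in the distal regions, with both extremes among the proximal ones. Across the 6000 probes of a compartment, Pearson's r between the log2 change from distal to proximal and that from healthy to injured regions was -0.01 in CD68 and -0.04 in non-immune segments, as a description.

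**Figure D5:**
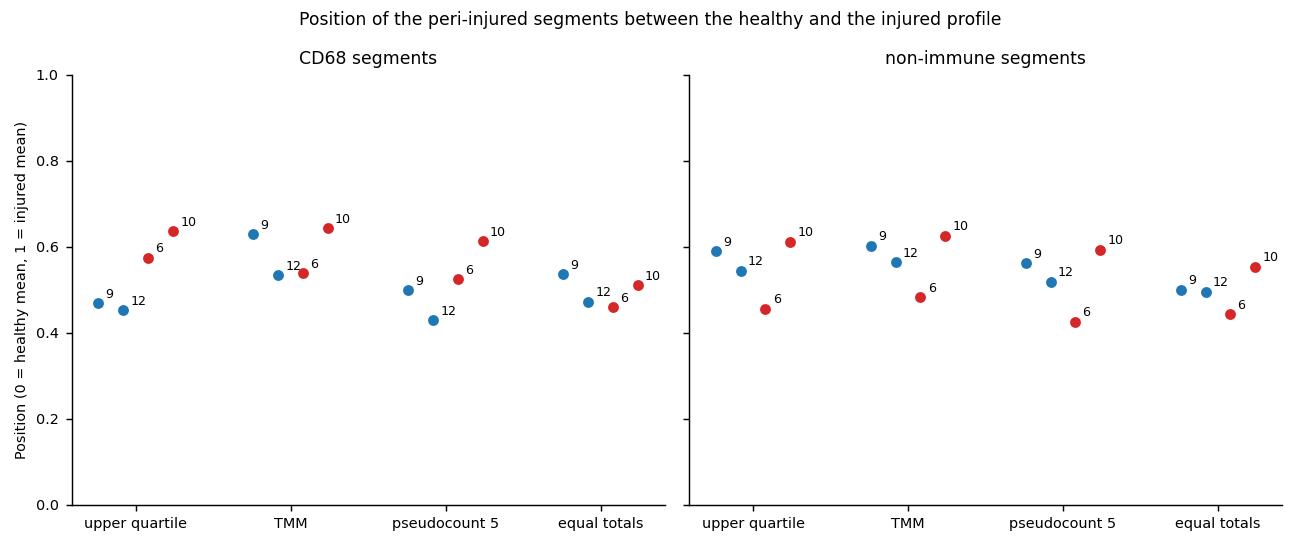
Position of each peri-injured segment between the mean healthy profile (0) and the mean injured profile (1) under 4 settings (horizontal axis), with distal regions in blue and proximal regions in red. The CD68 segments are ordered by distance only with the upper quartile (0.574 and 0.636 against 0.468 and 0.452) and a pseudocount of 5, and the non-immune segments under none.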

How the data were processed

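Per the file headers, the authors made the deposited counts with the GeoMx NGS Pipeline (version 2.3.4) by trimming, stitching and aligning reads to probe barcodes and removing duplicate molecules; they are raw counts, without normalization or filter. The area of each segment came from the deposited worksheet, which names no unit. Probes absent from a file were read as 0. The 6000 probes with the highest mean share over the 12 segments of a compartment were tested with edgeR 4.0.16 (upper quartile normalization, quasi-likelihood test, classes healthy, proximal, distal and injured, Benjamini-Hochberg adjustment), after the filter size and Q3 scaling of the study's methods; the scripts were tested on simulated data. DESeq2 1.42.0 and limma 3.58.1 served as alternatives, with thinning in 20 draws. A pseudocount of 1 was added to normalized counts before taking log2 for limma, the distances and the positions. The log2 changes of edgeR were those of its fitted model and did not use this pseudocount. Of called probes without overlap, the 2 with the lowest p in each direction and compartment, and for the difference between compartments 1 in each direction, were named. The regions, lists and tests were chosen with earlier results of these data known. Segments of a region share a place, and the correlations of their deviations from class means were -0.00109 to 0.170 over 12 regions, 5 over 0.1. In a class of 2 regions the deviations mirror each other. Regions 6 and 10 therefore share the value 0.170, which is counted for both, and regions 9 and 12 share 0.00869. The mixed model of the authors and other experiments of the study were not used here. Python scripts gave the segment measures.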

Additional observations from a re-analysis of the deposited data

Results flagged for a closer look

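Results in which 1 of the 4 peri-injured segments stood apart were picked out by Dixon's ratio, the gap of the highest or lowest segment to its neighbor divided by the range. Both classes entered 1 set of 4 segments, 7 of 29 such sets were picked out, and chance alone picks out about 1 in 20. Of the 7, 5 are probes named because they passed the test between the classes, so they are no independent sign, and 2 are measures of the segments. For the share of background counts in CD68 segments the ratio was 0.886, with region 9 at 34.7% and the others at 27.4% to 28.2%. For the share of counts in the probes of the non-immune compartment, the CD68 segment of region 10 was low, at 1.41% against 2.42% to 2.47% (ratio 0.960).

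Among the named probes, RTS0078421 was high in region 10 (ratio 0.99281) and RTS0069421 in region 12 (0.901) in CD68 segments. In non-immune segments RTS0062715 was high in region 9 (0.971), RTS0067055 in region 12 (0.973) and RTS0081477 in region 10 (0.835).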

How the results depend on the processing

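With 2 regions of 1 mouse in a class, leaving out 1 region decides most calls. In the CD68 compartment the 9 calls became 0 with DESeq2 (148 at an unadjusted p under 0.05), with edgeR's own filter on low counts (1477 probes kept, 100 at that p), with the 4 peri-injured segments alone (360) and with limma (712), and 1 with limma after subtracting background; leaving out 1 region gave 4 (without region 9) to 7 calls. The 12 non-immune calls became 3 with DESeq2, 27 with no filter, 28 with edgeR's filter, 31 with the 4 segments alone and 0 with limma (254) and with background subtracted (170); leaving out 1 region gave 2 to 19. The 0 calls for the difference between compartments became 5 with no filter, 1 with 10000 probes and 13 with the replicate block, and 0 to 4 when 1 region was left out; the block pairs the 2 segments of a region. The cause was not tested. Of the named CD68 probes, edgeR's own filter kept RTS0070590 (adjusted p = 0.0682, edgeR). It removed RTS0078421 and RTS0069421 for low counts, so these were not retested with it.

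Ratios and differences below are proximal against distal. The CD68 total ratio was 2.77 to 4.17 when 1 region was left out, and the ratio of probes with a count became 0.959 (CD68) and 0.985 (non-immune) at equal totals. The difference in CD68 position became 0.00896 with TMM, 0.105 with a pseudocount of 5 and -0.0191 with equal totals. Leaving out 1 region gave ratios of the share of probes higher in injured CD68 segments of 0.847 to 1.55, and of the mean distance between classes over that within classes (1.09 in both compartments) of 0.852 to 1.69 in CD68 and 0.909 to 1.36 in non-immune segments. The group medians relative to all probes ranged, in CD68, from -0.23 to 0.33 for probes that rise and -0.58 to 0.14 for those that fall with injury, and 0.25 to 0.45 for probes higher in CD68. In non-immune segments they ranged from -0.0764 to 0.0356 for probes that rise with injury, 0.18 to 0.36 for probes higher in CD68 and -0.22 to 0.16 for probes higher in non-immune segments. The ranges with 1 region left out for the group medians, the share of probes higher in injured segments and the distances were chosen after seeing the data. Over all these results, 40 values under other settings stayed within 1.5 times the count or 1 SD and 19 did not, as did 99 and 25 values with 1 region left out. The distal CD68 segments had an upper quartile of 3 and 4 counts, and with equal totals the median number of CD68 calls was 8 over 20 draws (6 to 10).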
